A study of Mus musculus with 6 samples.

Results

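Heterotrimeric G proteins were followed in ribosome-associated RNA of mPFC D2 neurons through 10 subunit genes, chosen by name from the deposited table. They were the Gα genes Gnai1, Gnai2, Gnai3, Gnao1, Gnaz, Gnas, Gnal and Gnaq and the Gβ genes Gnb1 and Gnb5. All 10 were present, with 65 of the 115220 listed transcripts and 10 of the 47729 genes. The libraries came from adult male D2Cre/LSL-Flag-Cas9/RiboTag mice of the C57BL/6 strain, so both groups carried Cre in D2 cells, Flag-Cas9 and the hemagglutinin-tagged ribosomal protein Rpl22. The 3 Ctrl libraries were from mice that received AAV GFP in the mPFC and the 3 Gsk3sKO libraries from mice that received AAV Gsk3sgRNA/GFP, and tissue was taken 3 weeks later. Tagged ribosomes come from all cells in the dissected mPFC in which Cre had acted, whether or not the virus reached them, and the sources used here do not say whether each library was 1 mouse or a pool. The p-values are therefore about the scatter of these libraries alone, some or all of which may be technical.

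A heterotrimeric G protein couples a receptor in the membrane to enzymes and channels inside the cell. The activated receptor makes the α subunit exchange GDP for GTP, and the α subunit and the βγ pair then act on separate effectors until GTP is hydrolysed. The D2 receptor works through Gαi and Gαo, which inhibit adenylyl cyclase and release βγ to open inwardly rectifying potassium channels. Gαs and Gαolf stimulate adenylyl cyclase, and Gαq activates phospholipase C β.

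The classes differ at the end of the α subunit, which is the part that meets the receptor. The last 10 codons before the stop codon are shown because the codon in capitals, the 4th from the end, sets the genes of Gαi and Gαo apart from the other α genes shown. In Gαi and Gαo it encodes the cysteine that pertussis toxin ADP-ribosylates, and this cysteine is absent from Gαz, Gαs and Gαq. The sequences were read 5′ to 3′ from the GENCODE M21 transcripts of GRCm38.
Gnai1: aagaataacctaaaagacTGTggtctcttc
Gnai2: aagaacaacctgaaggacTGTggcctcttc
Gnai3: aaaaacaacttaaaggaaTGTgggctttat
Gnao1, first form: gccaacaatctccggggcTGCggcttgtac
Gnao1, second form: gccaaaaacctacggggcTGTggactctac
Gnaz: cagaacaatctcaagtacATCggcctttgc
Gnas: cgcatgcatctccgccaaTACgagctgctc
Gnaq: cagctgaacctgaaggagTACaatctggtc
The capital codon encoded cysteine in Gnai1, Gnai2, Gnai3 and both forms of Gnao1, isoleucine in Gnaz and tyrosine in Gnas and Gnaq. The stretches lay in coding sequence at chr5:18267022-18267051 on the minus strand (Gnai1), chr9:107615638-107615667 on the minus strand (Gnai2), chr3:108109425-108109454 on the minus strand (Gnai3) and chr8:93967023-93967052 and chr8:93956220-93956249 on the plus strand (Gnao1). The others were on the plus strand at chr10:75015180-75015209 (Gnaz), chr2:174346356-174346385 (Gnas) and chr19:16383362-16383391 (Gnaq).

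The unit was FPKM, fragments corrected for transcript length and for the size of the library, and a gene total is the sum of FPKM over the listed transcripts of a gene. Without read counts, the depth was judged from the steps between low FPKM values, at about 23.5 to 45.1 M fragments a library. It is approximate, since 11.7% to 24.6% of such values came within 0.01 reads of an integer. At that depth a member rested on about 437 fragments (the lowest library of Gnai3) to 26038 (the highest of Gnas). Pan-neuronal genes were high in every library (summed total 1898 to 2148 FPKM). Drd2, the gene that defines the cells, was at 1.58, 6.02 and 14.1 FPKM in Ctrl and 8.32, 5.96 and 7.28 in Gsk3sKO. Summed astrocyte markers reached 149 to 183 FPKM in Ctrl and 150 to 197 in Gsk3sKO, so astrocyte transcripts were present in the pull-down. In such material fewer cells of a type and less RNA per cell cannot be told apart.

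In Ctrl, Gnas was the highest member, with a mean of 219 ± 1.25 FPKM (SD, n = 3). Gnao1 followed at 154 ± 10.5, Gnb1 at 129 ± 12.05, Gnai1 at 62.7 ± 1.74 and Gnaz at 60.7 ± 2.77. Below them stood Gnb5 at 45.7 ± 2.39, Gnal at 45.4 ± 8.60, Gnai2 at 42.8 ± 2.54, Gnaq at 38.9 ± 3.37 and Gnai3 at 8.94 ± 2.21 (all SD, n = 3). The 3 Ctrl values of neighbours in this order overlapped between Gnai1 and Gnaz, between Gnb5 and Gnal, between Gnal and Gnai2 and between Gnai2 and Gnaq. They were separate elsewhere, so Gnas, Gnao1 and Gnb1 each stood clear of the next gene and Gnai3 stood clear at the bottom. The Gnas total is not a level of Gαs alone. Its leading transcript ENSMUST00000087871, with 394 codons, had a Ctrl mean of 64.9 FPKM. ENSMUST00000149016, a processed transcript of 817 bases, had 39.0, and ENSMUST00000109083, with 91 codons, had 25.2.

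**Figure D1:**
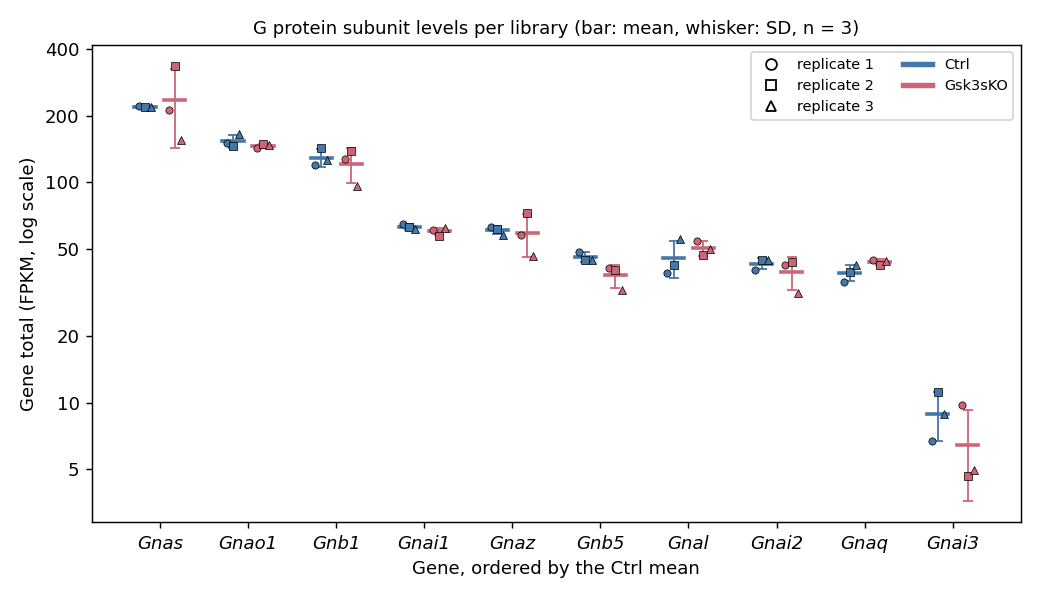
Gene totals of the 10 subunit genes in each library, as FPKM on a log axis, with genes ordered by the Ctrl mean. Points are libraries, bars the mean and whiskers the SD of 3 libraries. Gnas spreads from 156 to 334 FPKM in Gsk3sKO against 218 to 220 in Ctrl, and Gnb5 and Gnaq are the genes whose groups do not overlap.

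The Gi/o class made up 48.5% ± 0.316 (SD, n = 3) of the summed FPKM of the Gi/o, Gs/olf, Gq/11 and G12/13 genes in Ctrl and 46.3% ± 4.84 in Gsk3sKO. Among the Gi/o genes Gnao1, the main Gα of brain, held 46.7% in Ctrl, Gnai1 19.1%, Gnaz 18.5%, Gnai2 13% and Gnai3 2.72%. The Gs/olf class held 39.1% ± 0.066 of the Gα sum in Ctrl and 41.4% ± 6.26 in Gsk3sKO. Its Gnas part took in the noncoding and short transcripts of that gene as well. The Gi/o share was 47.0%, 41.2% and 50.8% in Gsk3sKO replicates 1 to 3, so it lay on both sides of the Ctrl values. The 41.2% of replicate 2 came with the high summed FPKM of Gnas in that library. With totals weighted by transcript length, described further on, the Gi/o share was 47.5%, 45.05% and 46.3% in Ctrl and 43.3%, 46.1% and 48.9% in Gsk3sKO, and replicate 2 lay within Ctrl. Gq/11 genes held 10.4% and G12/13 genes 2.05% in Ctrl. Within the β family Gnb1 held 51.6% of the FPKM in Ctrl, Gnb2 27.6%, Gnb5 18.3% and Gnb4 2.39%, and Gnb3 was listed at 0 in every library.

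The comparison of Gsk3sKO with Ctrl asks whether loss of GSK3β in these neurons goes with a change in G protein transcripts on ribosomes. The targeted gene was examined first. The Gsk3b transcript ENSMUST00000023507, its most abundant, was at 33.5, 34.7 and 36.2 FPKM in Ctrl and 24.8, 21.6 and 21.2 in Gsk3sKO. Its groups did not overlap (log2 fold change -0.61, unadjusted limma p of 0.00448, adjusted p not under 0.05, as for all 21584 transcripts tested). With libraries set to equal summed FPKM its log2 fold change was -0.26 with a p of 0.328, but that scaling raised the median of all transcripts as well, and relative to the median the transcript was at -0.49, against -0.55 as deposited. As a gene total Gsk3b was 35.6, 53.8 and 56.5 against 36.9, 37.0 and 33.6 FPKM, with an unadjusted limma p of 0.0648 (adjusted p = 0.773). The Ctrl libraries differed from each other in this total by more than the Gsk3sKO libraries did, and without Ctrl replicate 1 its p was 0.00279. That was the lowest with 1 library left out at a time. The unadjusted limma p ran up to 0.207, and the log2 fold change from -0.61 to -0.28. With each transcript weighted by its length the Gsk3b total was 282, 322 and 336 in Ctrl and 227, 206 and 197 in Gsk3sKO. On that scale the groups did not overlap (log2 fold change -0.57, unadjusted limma p of 0.0012, adjusted p = 0.486). A disrupted coding sequence need not remove the transcript, so these values do not measure the share of edited cells.

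None of the 10 subunit genes passed the test as a gene total. With limma on log2(FPKM + 1), 0 of 10 had an unadjusted p under 0.05, against 6.56% of the 12874 gene totals tested, and an ordinary linear model also called 0. The lowest unadjusted p was 0.0882 (Gnb5) and the lowest p after Benjamini-Hochberg adjustment over all gene totals was 0.792. The log2 fold change was negative for 7 members and positive for 3, with a median of -0.07, beside a median of -0.06 over all gene totals tested. The sign of the small changes depended on the scaling. Median ratio scaling, by the median ratio of each library to the gene means, kept 7 negative and 3 positive. The median was then -0.01 for the members and -0.01 for all gene totals. With libraries set to equal summed FPKM, the median of all gene totals moved to 0.25 and that of the members to 0.29, and 6 of the 7 negative members turned positive. Relative to the median of all gene totals the members ran from -0.39 to 0.22 on the log2 scale as deposited and from -0.39 to 0.26 with equal summed FPKM.

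**Figure D2:**
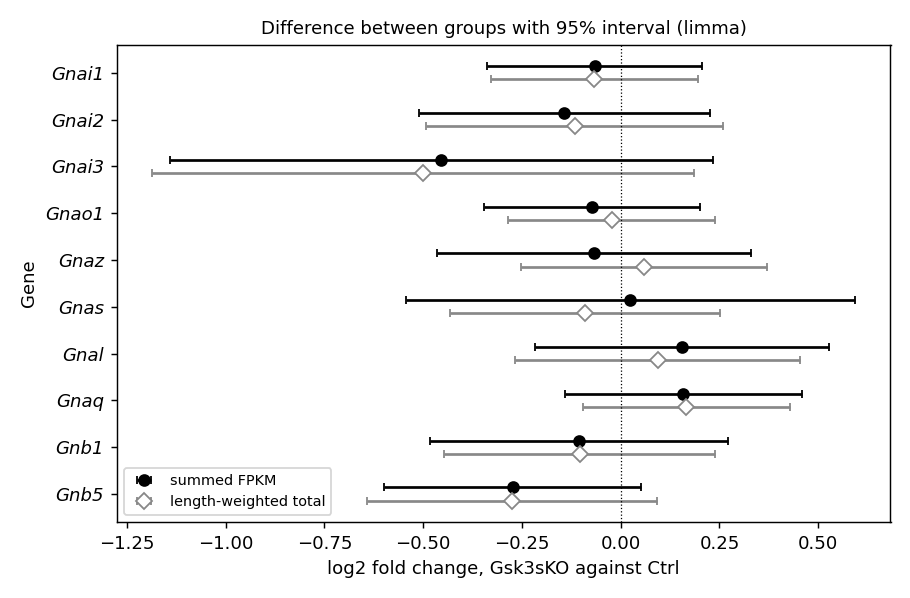
Log2 fold change of each subunit gene in Gsk3sKO against Ctrl, with 95% intervals from limma. Filled circles are summed FPKM and open diamonds are totals in which each transcript was weighted by its length. All intervals include 0, Gnas and Gnaz change sign between the totals, and 6 of the 7 negative circles turn positive when libraries are set to equal summed FPKM. With median ratio scaling all 7 stay negative.

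The Gi/o genes, which carry D2 receptor signals, had negative log2 fold changes in 5 of 5, 4 of which turned positive with equal summed FPKM. With median ratio scaling all 5 stayed negative, with Gnai1 and Gnaz at -0.01 and Gnao1 at -0.02. Gnai1 was at 64.5, 62.7 and 61.0 FPKM in Ctrl and 60.4, 57.3 and 61.9 in Gsk3sKO. These 6 values lay within a narrow band and the groups overlapped (log2 fold change -0.07, 95% interval -0.34 to 0.21, unadjusted limma p of 0.593, adjusted p = 0.938). The interval corresponds to a fold of 0.792 to 1.15. Gnao1 was at 151, 145 and 165 FPKM in Ctrl and 142, 148 and 147 in Gsk3sKO, with a log2 fold change of -0.07 (interval -0.35 to 0.20, unadjusted limma p of 0.554, adjusted p = 0.932). Its Gsk3sKO values overlapped the lower end of Ctrl. Gnai1 and Gnao1 thus had the tightest intervals of the class, and with FPKM as deposited a change of 1.5 times in either direction lay outside both. That bound does not carry over to equal summed FPKM, where both log2 fold changes were 0.29.

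Gnai2, a Gαi gene of many tissues, was at 39.8, 44.3 and 44.2 FPKM in Ctrl and 42.3, 43.3 and 31.4 in Gsk3sKO. Replicate 3 of Gsk3sKO was the low one, and without it the log2 fold change went from -0.14 (unadjusted limma p of 0.4, adjusted p = 0.903) to 0.0025. Gnaz, whose α subunit hydrolyses GTP slowly, was at 62.9, 61.6 and 57.6 FPKM in Ctrl and 57.8, 72.4 and 46.3 in Gsk3sKO. The spread in Gsk3sKO (coefficient of variation 22.3%) took in all the Ctrl values (4.57%), and the log2 fold change was -0.07 (unadjusted limma p of 0.71, adjusted p = 0.956). Gnai3, the lowest of the class, was at 6.73, 11.2 and 8.94 FPKM in Ctrl and 9.74, 4.65 and 4.99 in Gsk3sKO. Here Gsk3sKO replicates 2 and 3 lay below all Ctrl libraries and replicate 1 within them (log2 fold change -0.45, interval -1.14 to 0.23, unadjusted limma p of 0.167, adjusted p = 0.824). Without Gsk3sKO replicate 1 the log2 fold change of Gnai3 was -0.75 with an unadjusted p of 0.0248. Leaving out each library in turn gave -0.75 to -0.29, with an unadjusted limma p from 0.0248 to 0.413.

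Both genes of the stimulatory α subunits had positive log2 fold changes as summed FPKM, and Gnas a negative one with length-weighted totals. Gnal encodes Gαolf, the form that couples dopamine D1 and adenosine receptors to cyclase in striatal projection neurons. It was at 38.7, 42.3 and 55.1 FPKM in Ctrl and 54.0, 46.6 and 49.9 in Gsk3sKO, with Ctrl replicate 3 the highest of all (log2 fold change 0.16, interval -0.22 to 0.53, unadjusted limma p of 0.367, adjusted p = 0.894). The summed striatal projection neuron markers were 166, 194 and 437 FPKM in Ctrl and 282, 223 and 409 in Gsk3sKO, so Ctrl replicate 3 was also highest for these, and their part in the Gnal values was not tested. Gnas was at 220, 220 and 218 FPKM in Ctrl and 213, 334 and 156 in Gsk3sKO. The Ctrl libraries were almost equal, while the Gsk3sKO libraries lay at, above and below them, and the log2 fold change was 0.02 (interval -0.54 to 0.59, unadjusted limma p of 0.923, adjusted p = 0.993).

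Gnaq, the gene of Gαq, was at 35.4, 39.4 and 42.1 FPKM in Ctrl and 44.4, 42.1 and 43.96 in Gsk3sKO. Every Gsk3sKO library was above every Ctrl library, by a margin of less than 0.1 FPKM at the nearest pair. Over all gene totals 3.71% showed such a separation upward. The log2 fold change was 0.16 (interval -0.14 to 0.46, unadjusted limma p of 0.258, adjusted p = 0.861), and the 2-sided exact permutation test gave p = 0.1, the smallest that 3 libraries against 3 allow. The paralog Gna11, listed among the other α subunits, was at 31.9, 30.2 and 30.5 FPKM in Ctrl and 27.6, 27.9 and 21.5 in Gsk3sKO. All its Gsk3sKO values were below Ctrl, as for 8.3% of all gene totals (log2 fold change -0.27, unadjusted limma p of 0.116, adjusted p = 0.792). The Gq/11 class, of which these are the main genes, made up 10.4% ± 0.194 of the Gα sum in Ctrl and 10.5% ± 1.40 in Gsk3sKO (SD, n = 3). In Gsk3sKO replicates 1 to 3 it was 10.9%, 8.88% and 11.5%, and replicate 2 was the library with the high summed FPKM of Gnas.

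Gnb1 encodes the most abundant β subunit in these libraries, and was at 119, 142 and 125 FPKM in Ctrl and 128, 138 and 96.4 in Gsk3sKO. Only Gsk3sKO replicate 3 lay below the Ctrl values (log2 fold change -0.11, interval -0.48 to 0.27, unadjusted limma p of 0.537, adjusted p = 0.931). Gsk3sKO replicate 3 was the lowest library for 5 of the 10 members and the highest for 0. It also had the lowest median ratio factor (0.947) and the lowest summed FPKM (385795) of all libraries. The share of all gene totals lowest in it was not computed, so whether the count is particular to the members cannot be told. Gnb5 encodes the divergent β subunit that pairs with RGS proteins of the R7 family in place of γ, and these complexes speed GTP hydrolysis on Gαi and Gαo. It was at 48.5, 44.5 and 44.2 FPKM in Ctrl and 40.8, 39.96 and 32.6 in Gsk3sKO. All Gsk3sKO libraries lay below all Ctrl libraries, a separation seen downward in 8.3% of all gene totals. The log2 fold change was -0.27 (interval -0.60 to 0.05, unadjusted limma p of 0.0882, adjusted p = 0.792, 2-sided exact permutation p = 0.1), and 0.08 with equal summed FPKM. The single listed transcript is 1188 bases long with 395 codons, which leaves no annotated untranslated region, so its FPKM rests on reads in coding sequence.

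The R7 partners of Gnb5 gave 0 of 5 tested genes past the threshold, against 6.56% of all gene totals. Of their log2 fold changes 4 of 5 were positive (median 0.20, beside -0.06 over all gene totals). Rgs7bp, the anchor that holds these complexes at the membrane and the highest of the list, was at 67.3, 78.0 and 90.8 FPKM in Ctrl and 94.95, 94.93 and 93.9 in Gsk3sKO. Its Gsk3sKO libraries were all above Ctrl, as for 3.71% of all gene totals (log2 fold change 0.27, unadjusted limma p of 0.0887, adjusted p = 0.792). Rgs7, chosen after its values were seen because it is the R7 protein with the highest level, was at 46.5, 39.7 and 47.7 against 48.6, 42.9 and 46.3 FPKM.

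Below the gene totals, the division of a gene among its transcripts varied far more between libraries. Of the 65 transcripts of the members, 34 passed the minimum of 1 FPKM on average and were tested, 31 were not, and 2 of these were listed at 0 in every library. Of the 34 tested, 3 had an unadjusted p under 0.05, all lower in Gsk3sKO, against 5.56% called among all 21584 transcripts tested (3.75% lower and 1.81% higher). The lowest adjusted p of a member transcript was 0.818. The groups did not overlap for 3 of the 34, 1 each of Gnao1, Gnaq and Gnb5, as for 11.2% of all transcripts tested. The median log2 fold change of the 34 was -0.28, beside -0.06 over all transcripts tested. Gnas gave 13 of the 34, more than any other member, and several of these were listed at 0 in Gsk3sKO replicates 2 and 3. The median thus leans on the division of 1 gene and does not describe the members alike. Since the FPKM of overlapping transcripts come from an estimated division of shared reads, a low value of 1 transcript can go with a high value of another of the same gene.

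The called transcripts were 1 of Gnao1 and 2 of Gnas. The Gnao1 transcript ENSMUST00000125695, a retained-intron transcript of 938 bases, was at 10.9, 9.47 and 4.13 FPKM in Ctrl and 3.55, 2.34 and 2.22 in Gsk3sKO. All 3 Gsk3sKO values were lower than Ctrl (log2 fold change -1.24, SE 0.40, unadjusted limma p of 0.0201, adjusted p = 0.835), and the transcript held 1.51% to 7.26% of Gnao1. Its p rose above 0.05 when Ctrl replicate 1 (0.0683), Ctrl replicate 2 (0.0722), Gsk3sKO replicate 2 (0.0543) or Gsk3sKO replicate 3 (0.0552) was left out.

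The 2 called Gnas transcripts overlapped between groups. ENSMUST00000186907, with 725 codons, was at 8.38, 35.3 and 35.3 FPKM in Ctrl and 9.95, 0 and 0 in Gsk3sKO (unadjusted limma p of 0.0185, adjusted p = 0.818). ENSMUST00000185956 has the same annotated start, end, length (3729 bases) and number of exons (12). It was at 36.8, 6.44 and 9.93 FPKM in Ctrl and 44.4, 0 and 0 in Gsk3sKO (unadjusted limma p of 0.244). The division of reads between this pair could not be checked, so the call may not stand for a distinct transcript. An exact 0 in a table of estimated FPKM can be a failed estimate, and these values of 0 could not be checked against reads. With an ordinary linear model the p of ENSMUST00000186907 was 0.0629. Its p was above 0.05 without Ctrl replicate 2 (0.059), Ctrl replicate 3 (0.0608), Gsk3sKO replicate 2 (0.0597) or Gsk3sKO replicate 3 (0.0638). ENSMUST00000109083, with 91 codons, was at 37.4, 23.0 and 15.1 FPKM in Ctrl and 15.2, 12.04 and 11.3 in Gsk3sKO (log2 fold change -0.84, SE 0.34, unadjusted limma p of 0.0456, adjusted p = 0.842). Its lowest Ctrl value nearly equalled the highest Gsk3sKO value. With an ordinary linear model its p was 0.0935. Leaving out any library but Ctrl replicate 3 took its p above 0.05, to between 0.0566 (Gsk3sKO replicate 1) and 0.115 (Gsk3sKO replicate 3). The other p-values were 0.106 (Ctrl replicate 1 left out), 0.0916 (Ctrl replicate 2) and 0.104 (Gsk3sKO replicate 2).

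Gnas lies at chr2:174284320-174346744 on the plus strand and is an imprinted locus with several first exons, which yield Gαs, the extra-large form XLαs and the secretory protein NESP55. Its 24 listed transcripts were grouped by start, with a new group where the gap to the next start was over 1500 bases. The first group, 4 transcripts starting from 174284320 to 174285358, was at most 0.258 FPKM in any library. The second group, 7 transcripts that all start at 174297859 and reach 1133 codons, was at 47.7, 68.15 and 76.97 FPKM in Ctrl and 77.8, 0.0264 and 0 in Gsk3sKO. Gsk3sKO replicate 1 was thus as high as the highest Ctrl library, while replicates 2 and 3 were listed at or near 0 for the whole group, to which ENSMUST00000186907 belongs. Whether these low values are true levels or failed estimates of the division among transcripts cannot be told from FPKM alone.

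The third group, 6 transcripts starting from 174327570 to 174328023, was at 123, 117 and 110 FPKM in Ctrl and 109, 80.9 and 118 in Gsk3sKO. The fourth, 4 transcripts starting from 174330006 to 174330287, was at 48.9, 29.7 and 27.6 FPKM in Ctrl and 24.0, 253 and 33.2 in Gsk3sKO. The high value of Gsk3sKO replicate 2 was that of ENSMUST00000109087, a transcript of 1716 bases with the 394 codons of Gαs, chosen after its values were seen. It was at 232 FPKM there, 69.5% of the Gnas total, and at most 1.27 FPKM in every other library. ENSMUST00000087871, the most abundant in Ctrl, also has 394 codons but 3903 bases, and held 32.0%, 28.3% and 28.4% of Gnas in Ctrl and 34.0%, 8.51% and 58.1% in Gsk3sKO.

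**Figure D3:**
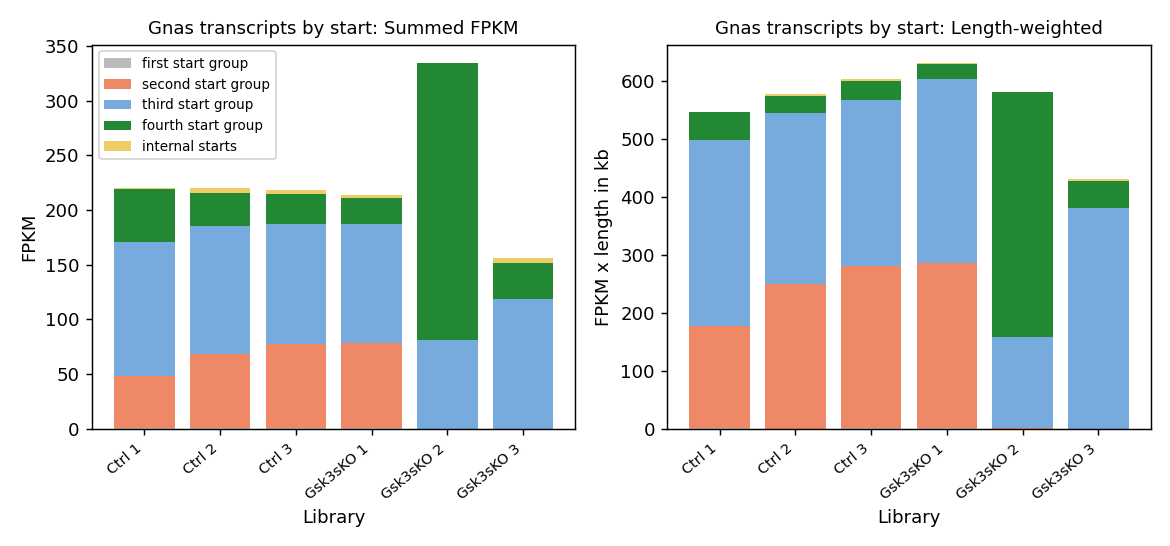
Gnas transcripts summed by start group in each library, as FPKM (left) and as FPKM times transcript length in kb (right). Bars are stacked by start group in the order along the gene. The second group is listed at or near 0 in Gsk3sKO replicates 2 and 3, where the estimate may have failed, and the fourth reaches 253 FPKM in Gsk3sKO replicate 2.

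A sum of FPKM changes when the same number of fragments is assigned to a shorter transcript, so the totals were also computed with each transcript weighted by its length in kb, which makes it follow the number of fragments. This choice was made after the data were seen. On that scale Gnas was at 547, 577 and 603 length-weighted units in Ctrl and 631, 581 and 430 in Gsk3sKO. Gsk3sKO replicate 2, far above Ctrl as summed FPKM, lay within the Ctrl range, and the coefficient of variation in Gsk3sKO was 19.1% against 38.9% as summed FPKM. The log2 fold change was -0.09 (interval -0.43 to 0.25, unadjusted limma p of 0.568, adjusted p = 0.942). Gnaz, weighted the same way, was at 188, 152 and 176 in Ctrl and 179, 196 and 162 in Gsk3sKO, with a log2 fold change of 0.06 and a coefficient of variation of 9.47% in Gsk3sKO. With weighted totals 0 of the 10 members had an unadjusted limma p under 0.05, against 5.72% of the 13787 weighted totals tested (4.2% lower and 1.52% higher). Gnb5 (lower) and Gnaq (higher) were again the members whose groups did not overlap, as were 11.5% of all weighted totals in either direction.

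The leading transcript of Gnaz held more than 50% of the gene in 5 libraries and little in the other. ENSMUST00000159991 held 64.8%, 53.7% and 64.2% of Gnaz in Ctrl, 64.9% and 60.01% in Gsk3sKO replicates 1 and 2, and 5.77% in Gsk3sKO replicate 3. In that library ENSMUST00000037813, which also has 355 codons and starts upstream, held 94.2%, against 12.9% to 24.4% in the other libraries. The third transcript, ENSMUST00000160421, annotated as a processed transcript, held 14.0%, 33.3% and 12.01% in Ctrl, 10.6% and 24.2% in Gsk3sKO replicates 1 and 2, and was listed at 0 in replicate 3. The test of ENSMUST00000159991 gave a log2 fold change of -1.04 with an unadjusted limma p of 0.311, and without Gsk3sKO replicate 3 the log2 fold change was 0.13.

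Gnao1 yields Gαo with alternative ends, shown as the first and second form among the sequences above. The first form, the sum of ENSMUST00000125716 and ENSMUST00000034198, was at 131, 125 and 155 FPKM in Ctrl and 128, 141 and 135 in Gsk3sKO. It held 85.9% to 95.4% of Gnao1 in every library. The second form, ENSMUST00000138659, was at 5.86, 7.05 and 4.03 FPKM in Ctrl and 7.95, 3.81 and 9.12 in Gsk3sKO, or 2.43% to 6.19% of the gene. Both forms keep the cysteine codon, and the groups overlapped for both.

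Gnal was listed with 2 transcripts. ENSMUST00000076605, with 381 codons, was at 28.0, 30.1 and 51.2 FPKM in Ctrl and 34.5, 44.8 and 48.9 in Gsk3sKO. ENSMUST00000025402, with 448 codons from an upstream start, was at 10.7, 12.2 and 3.88 in Ctrl and 19.5, 1.73 and 1.01 in Gsk3sKO. The longer one was below 4 FPKM in Ctrl replicate 3 and in Gsk3sKO replicates 2 and 3, and for either transcript the groups overlapped. Without Ctrl replicate 3 the log2 fold change of ENSMUST00000076605 was 0.53 with an unadjusted limma p of 0.0475. Leaving out each library in turn gave 0.10 to 0.53, with an unadjusted limma p from 0.0475 to 0.732.

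Gnb1 was divided mainly among 4 transcripts of 340 codons each. ENSMUST00000176637 led in every library, with 44.6% to 67.1% of the gene. Gnai2 was led by ENSMUST00000055704, with 50.5% to 86.7%, and its second transcript ENSMUST00000192615 also has 355 codons. Gnaq was almost wholly ENSMUST00000025541, at 35.3, 39.3 and 38.0 FPKM in Ctrl and 43.2, 41.9 and 41.3 in Gsk3sKO. All its Gsk3sKO values were above Ctrl, with a limma p of 0.232, and 0.0271 in an ordinary linear model. Gnai1 and Gnai3 had 1 listed transcript each.

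**Figure D4:**
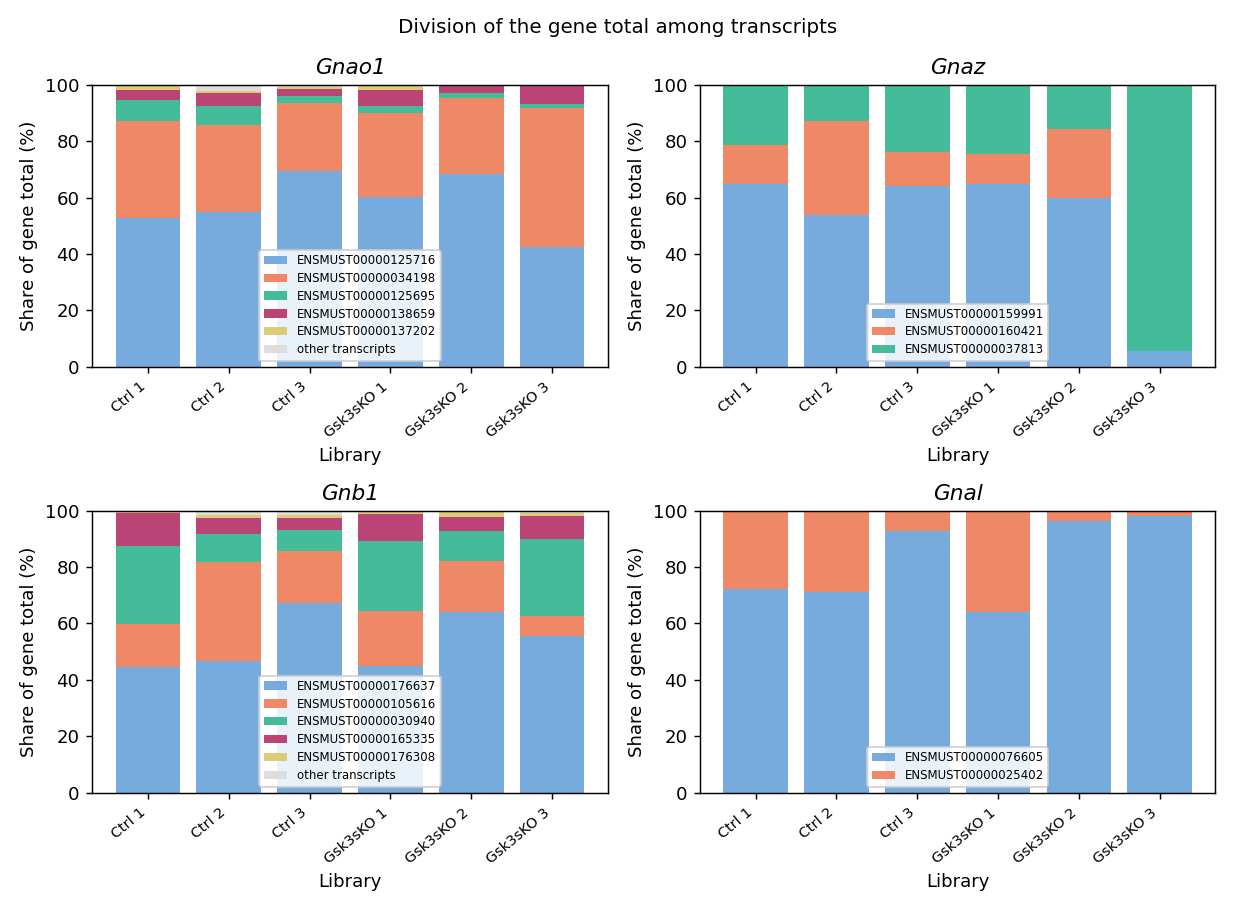
Share of each gene total held by its tested transcripts in each library, in percent, for Gnao1, Gnaz, Gnb1 and Gnal. Bars are libraries and colours are transcripts, with grey for the transcripts not tested. In Gnaz the leading transcript is at 5.77% in Gsk3sKO replicate 3, and in Gnal the second transcript ranges from 2.02% to 36.1%.

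The wider pathway was described through 65 other genes in 7 lists, of which 64 were in the table and 41 passed the minimum of 1 FPKM. With limma 3 of 41 had an unadjusted p under 0.05, 2 lower and 1 higher, against 6.56% of all gene totals (5.2% lower and 1.36% higher), and the lowest adjusted p was 0.692. The log2 fold change was negative for 18 of 41, with a median of 0.04. Among other α subunits 0 of 3 were called, among other β subunits 0 of 2, among γ subunits 1 of 8, among chaperones and regulators 2 of 9, among effectors 0 of 12 and among dopamine receptors 0 of 2.

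Gng13, the gene of a γ subunit known from taste cells, retina and some neurons, was at 41.2, 24.6 and 19.3 FPKM in Ctrl and 19.98, 11.6 and 13.9 in Gsk3sKO. Ctrl replicate 1 stood apart, and the groups overlapped by the nearest pair (log2 fold change -0.83, SE 0.30, unadjusted limma p of 0.0226, adjusted p = 0.692). Without Ctrl replicate 1 it was -0.53 with an unadjusted p of 0.0729. The p was 0.0805 when Gsk3sKO replicate 2 was left out and 0.0616 when Gsk3sKO replicate 3 was. Pdcl, whose product helps the chaperonin fold β subunits and join them to γ, was at 30.7, 15.3 and 11.7 FPKM in Ctrl and 8.44, 9.42 and 12.5 in Gsk3sKO. Again Ctrl replicate 1 was the highest (log2 fold change -0.77, SE 0.33, unadjusted limma p of 0.0453, adjusted p = 0.751). Without Ctrl replicate 1 the log2 fold change of Pdcl was -0.39 with an unadjusted p of 0.132, and p was also above 0.05 without Ctrl replicate 2 (0.0543), Gsk3sKO replicate 1 (0.122) or Gsk3sKO replicate 2 (0.101).

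Ccdc88a, the gene of girdin, a non-receptor activator of Gαi, was at 9.87, 11 and 12.8 FPKM in Ctrl and 13.7, 14.2 and 20.8 in Gsk3sKO. All 3 Gsk3sKO values were above Ctrl, replicate 3 most, a separation seen upward in 3.71% of all gene totals (log2 fold change 0.48, SE 0.21, unadjusted limma p of 0.0497, adjusted p = 0.755). Without Gsk3sKO replicate 3 the log2 fold change was 0.29 with an unadjusted p of 0.153, and p was also above 0.05 without Ctrl replicate 1 (0.126), Ctrl replicate 2 (0.107) or Gsk3sKO replicate 2 (0.0519).

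The most abundant gene of each list was not called. Gnb2, the second β subunit, was at 66.6, 54.0 and 87.6 FPKM in Ctrl and 70.1, 71.3 and 37.3 in Gsk3sKO. Gng3, a neuronal γ subunit, was at 81.2, 97.3 and 103 against 111, 110 and 81.4, and Gap43, a growth cone protein that acts on Gαo, was at 140, 110 and 105 against 113, 111 and 119. Plcb1, the phospholipase that Gαq activates, was at 77.7, 81.6 and 94.9 in Ctrl and 175, 91.8 and 97.3 in Gsk3sKO, with replicate 1 far above the rest (unadjusted limma p of 0.0946). The groups of all 4 overlapped, and Drd2, the highest dopamine receptor gene, had a limma p of 0.57.

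For the 2 most abundant members, the genes with the most similar profile over the 6 libraries were found among all 12874 gene totals by the root mean square difference of centred log2(FPKM + 1). For Gnas these were Maged2 (difference 0.05) and Trpc5 (0.0627). For Gnao1 they were Rasa2 (0.0228) and Ppm1g (0.0277). Over 6 libraries many genes can share a profile, and these distances are a description.

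Markers of other cells moved with the groups in part. Of the tested oligodendrocyte markers 3 of 6 were called lower (Mog, Mag and Cnp), with a summed level of 119 to 184 FPKM in Ctrl and 128 to 166 in Gsk3sKO. Of the microglia markers 2 of 6 were called lower (C1qa and C1qb), with a summed level of 22.4 to 34.5 FPKM in Ctrl and 16.4 to 22.1 in Gsk3sKO. The excitatory list had 1 of 7 called lower (Tbr1), and the pan-neuronal, inhibitory, striatal, astrocyte and endothelial lists had 0. No marker was at 0 in all 6 libraries, although Mog was listed at 0 in Gsk3sKO replicates 2 and 3. The part of these cells in the lower Gnb5 and Gnai3 values was not tested.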

How the data were processed

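Ribosome-associated RNA was taken by RiboTag immunoprecipitation and sequenced from a stranded total RNA kit in 3 Ctrl and 3 Gsk3sKO libraries, grouped by their labels. The authors deposited FPKM per transcript and library. The submitters' processing notes name HISAT2 2.1.0, SAMtools 1.9, StringTie 1.3.4d and GRCm38, and their settings, strand included, were not found in these sources, so reads of Gnas and of antisense RNA at that locus cannot be told apart. Columns of folds, p-values and q-values by the authors were not used, and 0 columns of other samples were left out.

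Transcript lengths, starts and sequences were those of GENCODE M21, in which 114237 of 115220 transcripts were found and 983 were not. FPKM was summed by gene identifier. The test was limma 3.58.1 with R 4.3.3, 2-sided, with trended eBayes moderation and no covariates, on log2(FPKM + 1) over the whole table, for features with a mean of at least 1 FPKM over 6 libraries. A fold change on this scale understates that of low transcripts. A feature was called at an unadjusted p under 0.05, and adjusted p-values are Benjamini-Hochberg over all features tested. The code was tested on simulated data. Exact permutation tests used scipy 1.17.1 in Python 3.11.15, with pandas 2.3.3, numpy 2.4.6 and matplotlib 3.10.9. Depth was judged from the steps between low FPKM values, for transcripts of more than 800 bases. Alternatives were pseudocounts, filters on low values, scalings, an ordinary linear model, a replicate block and leaving out each library. Length-weighted totals were added after the data were seen.

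The members, the lists and the tests were chosen with earlier results of these data known. Named by rule were all members with Gsk3b, each member's most abundant Ctrl transcript and every called transcript, the called genes and the most abundant gene of each pathway list, and the 2 genes most like Gnas and Gnao1. Rgs7 and further transcripts of the members were added after their values were seen.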

Additional observations from a re-analysis of the deposited data

How the results depend on the processing

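Across pseudocounts of 0.1 and 0.5, no filter or a minimum of 5 FPKM, both scalings, the ordinary linear model, the replicate block and length-weighted totals, 0 member gene totals were called. Of 406 comparisons of single genes or transcripts with an alternative, 333 kept direction and side of the threshold, 41 fell below it, 5 rose past it and 27 changed sign. With equal summed FPKM the sign became positive for the gene totals of Gnai1 (0.29), Gnai2 (0.21), Gnao1 (0.29), Gnaz (0.29), Gnb1 (0.26) and Gnb5 (0.083) and for the leading transcripts of Gnai1 (0.29), Gnao1 (0.22), Gnas (0.19), Gnb1 (0.32) and Gnb5 (0.083). Scaling each library by its summed FPKM moves all genes of a library alike, and the calls over all gene totals went from 669 lower and 175 higher to 235 lower and 879 higher. Median ratio scaling gave 527 lower and 276 higher, and 0.016 for the leading Gnb1 transcript. Length-weighted totals gave 0.060 for Gnaz and -0.090 for Gnas. Of the other pathway genes, 5 were called with equal summed FPKM, 1 with the ordinary linear model and 1 with length-weighted totals, against 3. The cause was not tested.

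With 1 library left out at a time, 0 to 1 member gene totals (Gnai3, without Gsk3sKO replicate 1), 0 to 6 member transcripts and 1 to 4 other pathway genes were called. The log2 fold change ranged from -0.22 to 0.0025 for Gnai2, from -0.23 to 0.091 for Gnaz, from -0.27 to 0.28 for Gnas and from -0.21 to 0.047 for Gnb1. For leading transcripts it ranged from -0.12 to 0.19 (Gnai2), from -0.29 to 0.049 (Gnao1), from -0.50 to 0.32 (Gnas), from -1.67 to 0.13 (Gnaz) and from -0.26 to 0.12 (Gnb1). The 6 member transcripts were called without Gsk3sKO replicate 1, and the 0 without Ctrl replicate 2 or Gsk3sKO replicate 3.

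Same-numbered libraries did not deviate together (correlations -0.03, -0.01 and -0.08 over 12874 gene totals), so no common shift by number was seen. The deviations were taken from group means of 3 libraries and cannot settle whether libraries were handled in pairs. With the replicate block 0 member gene totals, 3 member transcripts and 2 other pathway genes were called, and over all features 821 gene totals in place of 844. Gnai3 rested on the fewest fragments of the members, and the part of depth in its spread was not tested.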
